A study of Mus musculus with 6 samples.

Results

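The glycolysis enzymes described here are 10 mouse genes chosen by name, *Hk1*, *Hk2*, *Pfkl*, *Pfkm*, *Pfkp*, *Aldoa*, *Gapdh*, *Pgk1*, *Pkm* and *Ldha*. All 10 were found by their symbol in a table of 54721 transcript entries, which carries 23276 gene symbols, and they account for 21 of the entries. The values come from RNA sequencing of whole kidneys of 6 mice at postnatal day 22 by the labels. In 3 Pkd1 F/RC SKO mice, KspCre, a Cre driven by a promoter of the kidney tubule epithelium, acts on a floxed allele of the polycystic kidney disease gene *Pkd1*, and the other *Pkd1* allele carries the germline RC mutation. The 3 Pkd1 F/RC DKO mice share all of these alleles and also carry the floxed microRNA cluster miR17~92 F/F. Both groups therefore have a mutated *Pkd1* in their tubules, no wild-type kidney was analysed here, and cells in which KspCre is not active keep the floxed alleles intact.

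The study asked which transcripts differ when the microRNA cluster is removed from polycystic kidneys. No value of a single kidney was available for that question. The values used here are the authors' mean log2 CPM, read counts scaled to an equal library size, over all 6 libraries of both groups, so each transcript has 1 level, with no SD and no test, and nothing below compares DKO with SKO kidneys. The host transcript of the cluster, *Mir17hg*, had a mean of 4.21 CPM, which as a mean over both groups cannot check the deletion.

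Glycolysis splits glucose into pyruvate and makes a little ATP without oxygen, and lactate dehydrogenase then interconverts pyruvate and lactate. Most steps have several isozymes, each from its own gene, and tissues differ in which of them they use. Kidney is mixed in this respect, since the proximal tubule makes glucose by gluconeogenesis and takes up lactate, while more distal segments burn glucose. In whole kidney RNA, fewer cells of a type and less RNA per cell cannot be told apart.

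The microRNAs of the deleted cluster are shown here because their seeds were searched in the glycolysis transcripts. They are RefSeq mature sequences on the plus strand of chromosome 14 (GRCm38.p6), 5′ to 3′, and the capitals mark the seed, bases 2 to 8. miR-17-5p and miR-20a-5p share a seed, as do miR-19a-3p and miR-19b-3p.
miR-17-5p: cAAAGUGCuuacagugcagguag
miR-20a-5p: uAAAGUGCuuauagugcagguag
miR-18a-5p: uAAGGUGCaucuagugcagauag
miR-19a-3p: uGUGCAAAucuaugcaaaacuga
miR-19b-3p: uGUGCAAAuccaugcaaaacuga
miR-92a-3p: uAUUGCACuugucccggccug

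A single glycolysis transcript, that of *Pfkp*, the platelet-type phosphofructokinase, held the 7-base complement of any of these seeds in its 3′-untranslated region (3′-UTR). The match is the complement of the miR-17-5p and miR-20a-5p seed, lies at bases 81 to 87 of a 3′-UTR of 1692 bases, and is followed by an A. It is at chr13:6581373-6581379 on the minus strand (GRCm38), and is printed with the match in capitals.
*Pfkp* 3′-UTR: gttatttatcaGCACTTTatggaagcaag

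The same complement was in the 3′-UTR of 11.1% of 18876 genes with a RefSeq mRNA and a 3′-UTR in the annotation. The complements of the other seeds were in 7.22% of genes for miR-18a-5p, 10.05% for the miR-19 pair and 5.99% for miR-92a-3p, and in none of the 10 glycolysis transcripts. At least 1 of the seeds had a match in 26.4% of all genes and in 1 of the 10 glycolysis enzymes. Length bears on such counts, and the glycolysis 3′-UTRs had a median of 513 bases against 788 over all genes. Those of *Hk1*, with 1054 bases, *Pfkl*, with 1263, *Pfkp* and *Hk2* were longer than 788, and of these only *Pfkp* held a match. The share with a match among genes of like 3′-UTR length was not computed. The glycolysis 3′-UTRs ranged from 178 bases in *Gapdh* and 183 in *Aldoa* to 2285 in *Hk2*. A match is a run of letters and was not tested as a site.

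The 10 enzymes are described here as a high and a low group by their level per length, divided between *Pkm* and *Hk1*. The grouping depends on that division by length. By CPM alone *Hk1*, at 113, was among 6 enzymes above 100 CPM, and *Pfkl* followed at 42.4. Per kilobase of transcript, *Gapdh*, *Aldoa*, *Pgk1*, *Ldha* and *Pkm* had 88.4 to 186 CPM, whereas *Hk1*, *Pfkl*, *Pfkp* and *Pfkm* had 6.41 to 26.4 and *Hk2* had 0.744. The median of the 20167 gene symbols with a transcript length was 1.40 CPM per kilobase, and 9 of the 10 enzymes were above it. The widest step in the order was between *Pfkm* and *Hk2*, a ratio of 8.62, followed by that between *Pkm* and *Hk1*, a ratio of 3.35. Within the high group neighbours in the order differed by ratios of 1.11 to 1.25. No spread between kidneys was available, so it could not be said which neighbours differ beyond it.

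**Figure D1:**
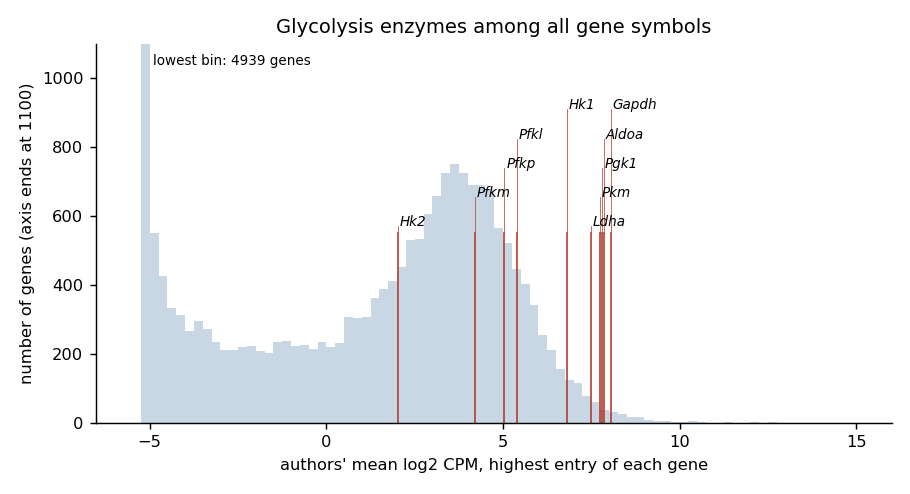
Histogram of the authors' mean log2 CPM (x axis) over the 23276 gene symbols, each by its highest transcript entry, with the number of genes on the y axis, which ends at 1100. Red lines mark the 10 glycolysis enzymes, of which *Hk2* lies at 2.04 and the highest, *Gapdh*, at 8.05.

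Hexokinases trap glucose in the cell as glucose 6-phosphate. *Hk1* (chr10:62268855-62379908, minus strand) is the broadly expressed form that sits on mitochondria. Its 3 entries had a mean log2 CPM of 6.82 each, which is 113 CPM in the highest. The lowest differed from the highest by -0.00298 on the log2 scale although the RefSeq mRNAs differ in their first exons and elsewhere. The longer one also has 249 untranslated bases of its own in exon 18, and the other 69 coding bases in exon 12. Of the bases of the longer one, 81.8% are common to both. The RefSeq entries of each gene overlap and nearly coincide in value, while the assembled entries of *Pfkm*, *Pfkp* and *Pkm* were at 61.7%, 47.6% and 22.0% of the highest entry. Entries were not added up, and those of 1 gene were not taken as separate measurements of it.

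*Hk2* (chr6:82725025-82774454, minus strand) is the insulin-responsive form of muscle and fat, and is raised in many tumours. Its single entry had a mean log2 CPM of 2.04, or 4.10 CPM. Per kilobase it had the lowest level of the 10 enzymes and was above 43.1% of genes. *Hk1* was 35.5 times as high as *Hk2* per kilobase and made up 95.1% of the summed level of 4 hexokinase genes. *Hk2* made up 2.68%, *Hkdc1*, a hexokinase domain gene next to *Hk1*, 1.87% and *Hk3* 0.310%.

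Phosphofructokinase commits sugar to glycolysis, and its 3 subunits assemble into mixed tetramers. The liver-type subunit *Pfkl* (chr10:77986947-78010083, minus strand) had a mean log2 CPM of 5.41, or 42.4 CPM, in its single entry. The platelet-type subunit *Pfkp* (chr13:6579768-6648777, minus strand) had 5.04, or 32.9 CPM, in its RefSeq entry and 3.97 in an entry assembled from the reads. The muscle-type subunit *Pfkm* (chr15:98092589-98132451, plus strand) had 4.20 to 4.21, or 18.4 to 18.5 CPM, in 3 RefSeq entries and 3.51 in an assembled one.

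Unlike the hexokinases, the phosphofructokinases had no dominant gene. Per kilobase *Pfkl* held 44.2% of the family, *Pfkp* 30.9% and *Pfkm* 24.9%, and the levels of 11.4, 7.95 and 6.41 CPM per kilobase span less than a factor of 2. When the CPM of every entry was added up before dividing by that length, *Pfkm*, which has 4 entries, held 50.1% and *Pfkl* 24.6%. Such a sum grows with the number of overlapping entries, so the order given is that of 1 entry per gene. On the opposite strand, exons of *Pitrm1* overlap 17.05% of the 51-base stretches of *Pfkp*. The strand setting of the counting is not given in the sources used here.

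**Figure D2:**
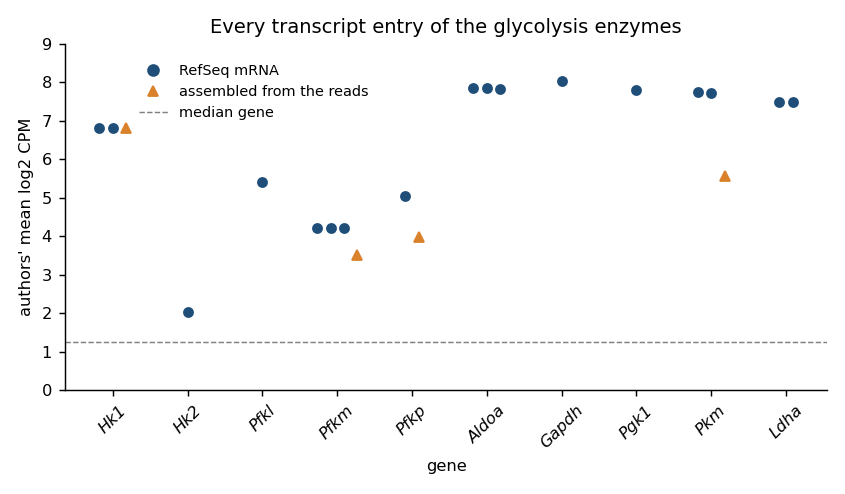
Authors' mean log2 CPM (y axis) of each of the 21 transcript entries of the 10 glycolysis enzymes (x axis). Circles are RefSeq mRNAs, triangles are transcripts assembled from the reads, and the dashed line is the median gene, which all entries exceed; the RefSeq entries of a gene coincide while the assembled entries of *Pfkm*, *Pfkp* and *Pkm* are lower.

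Aldolase cleaves fructose 1,6-bisphosphate into triose phosphates. *Aldoa* (chr7:126795234-126800751, minus strand), the muscle and ubiquitous form, had a mean log2 CPM of 7.84 to 7.87 in its 3 RefSeq entries, or 229 to 234 CPM. At 151 CPM per kilobase it was above 99.4% of genes.

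The next enzymes oxidize the triose phosphate and recover ATP. *Gapdh* (chr6:125161715-125166467, minus strand), glyceraldehyde 3-phosphate dehydrogenase, had a mean log2 CPM of 8.05, or 265 CPM, in its single entry, and 111 of the 23276 gene symbols had more CPM. *Pgk1* (chrX:106187100-106203699, plus strand), phosphoglycerate kinase, had 7.82, or 225 CPM, also in 1 entry. The testis isozyme *Pgk2* was at 0.0278 CPM, close to the lowest value of the table, 0.0263 CPM. The RefSeq entry of *Gapdhs*, the testis isozyme of *Gapdh*, was at 0.0292 CPM, but an entry of that gene assembled from the reads was at 3.09 CPM. By RefSeq entries per kilobase *Gapdh* and *Pgk1* each held over 99% of their pair.

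Pyruvate kinase makes the last ATP of the pathway. *Pkm* (chr9:59656368-59679375, plus strand) is spliced with either of a pair of exons, giving the M1 form of muscle and brain or the M2 form of growing cells. Its RefSeq entries had mean log2 CPM values of 7.75 and 7.73, or 215 and 213 CPM, and an assembled entry had 5.57. *Pkm* made up 95.8% of the pyruvate kinase level per kilobase, against 4.19% for *Pklr*, the liver and red cell gene. The RefSeq mRNAs differ by a coding exon of 167 bases each, at chr9:59675568-59675734 in the one of higher level and chr9:59675029-59675195 in the other. The difference of 2.43 CPM between them is 1.13% of the higher value. It does not give the share of either splice form, since most bases are common to both and the mRNA of higher level also has untranslated bases of its own.

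Lactate dehydrogenase is a tetramer of A and B subunits, of which A is typical of glycolytic and B of lactate-using tissues. *Ldha* (chr7:46841475-46855627, plus strand) had a mean log2 CPM of 7.48, or 179 CPM, in both of its entries. *Ldhb* was higher, with 366 against 98.5 CPM per kilobase. It held 78.8% of the family and *Ldha* 21.2%, while the testis gene *Ldhc* was at 0.0293 CPM. The ratio of *Ldhb* over *Ldha* was 3.71.

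**Figure D3:**
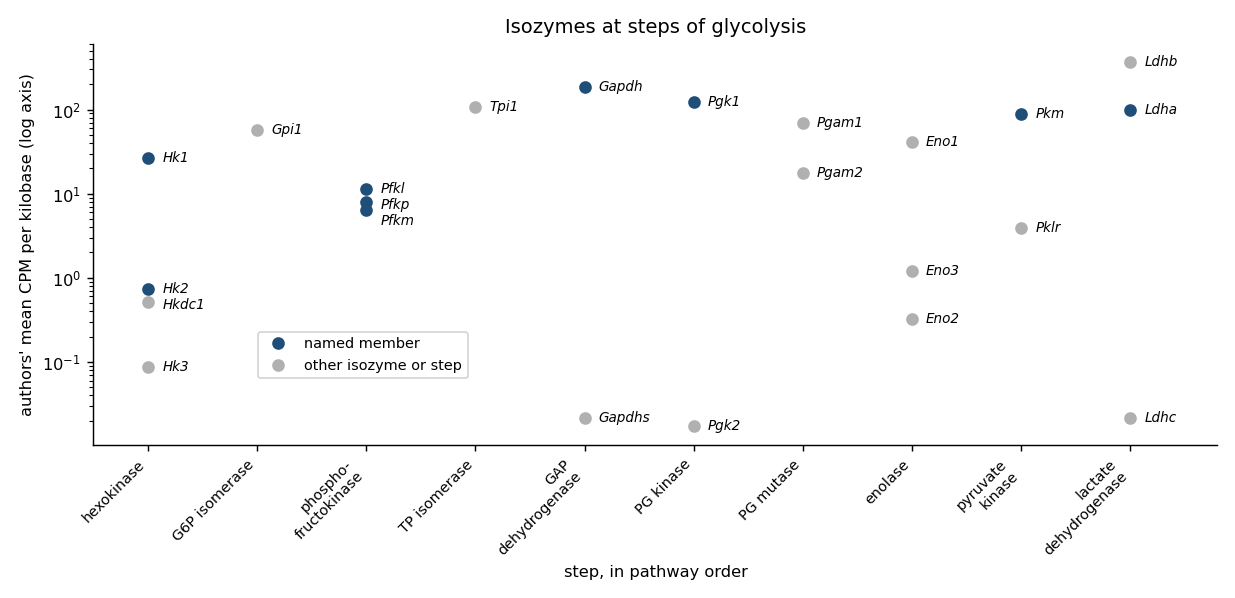
Authors' mean CPM per kilobase of transcript (y axis, log scale) of the isozyme genes at 10 steps from hexokinase to lactate dehydrogenase (x axis). Blue points are 9 of the named enzymes and grey points other genes; *Ldhb* lies above *Ldha*, and *Hk1* lies 35.5 times above *Hk2*.

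Whether a read of 51 bases can be placed on 1 locus differed widely among the enzymes. The high group was the one with copies elsewhere in the genome. Of the 51-base stretches of the transcript, 82.4% in *Gapdh* and 67.9% in *Pgk1* occurred exactly at another annotated locus. The shares were 29.8% in *Pkm*, 15.9% in *Ldha* and 12.9% in *Aldoa*. *Pfkl* had 1 such stretch of 3680, and *Hk1*, *Hk2*, *Pfkm* and *Pfkp* had none. For *Gapdh* the copies lay in 220 other genes, of which 211 are annotated as pseudogenes, and for *Pgk1* nearly all lay in the processed pseudogene *Pgk1-rs7*.

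The authors discarded alignments of low mapping quality, and reads from shared stretches can be lost by that step or be placed on a copy. Dividing by the unshared stretches alone takes every read from a shared stretch as lost. Where such reads were kept, it gives too high a level. So divided, the level would be 1098 CPM per 1000 stretches for *Gapdh* and 396 for *Pgk1*, against 193 and 127 over all stretches. *Pgk1* would then stand above *Aldoa*, at 179, and *Pkm*, at 129, above *Ldha*, at 120. *Gapdh* was first and *Hk2* last in both orders. How many reads were lost or moved in these libraries was not tested, so the levels of *Gapdh* and *Pgk1* are uncertain by more than those of the hexokinases and phosphofructokinases.

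**Figure D4:**
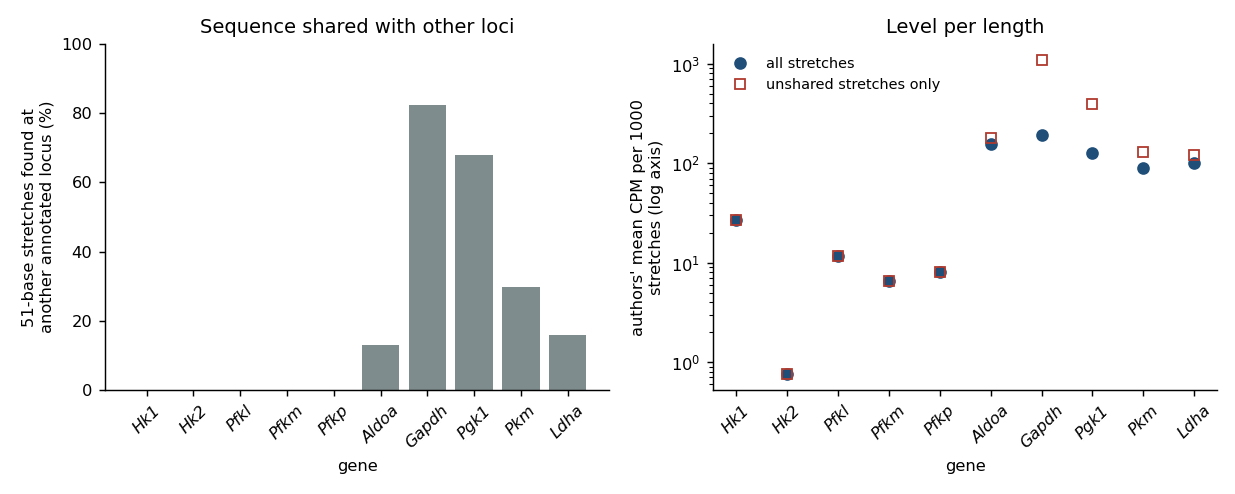
Left, percentage of the 51-base stretches of each glycolysis transcript that occur at another annotated locus (bars); right, authors' mean CPM per 1000 stretches (log scale) over all stretches (filled circles) or over the unshared ones (open squares). The bars reach 82.4% for *Gapdh* and 67.9% for *Pgk1*, the genes whose symbols part most on the right.

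The other listed genes of the pathway were enzymes of its remaining steps and further isozymes, and 14 of 18 had at least 1 CPM. Over all gene symbols, 13001 of 23276 reached that level, which is the share to set beside such counts here and below. *Gpi1*, glucose 6-phosphate isomerase, had 57.0 CPM per kilobase and *Tpi1*, triosephosphate isomerase, 108. *Pgam1* held 79.9% of the phosphoglycerate mutases with 69.6 CPM per kilobase, and *Pgam2*, the muscle form, 20.1%. *Eno1* held 96.3% of the enolases with 40.6 CPM per kilobase, but 71.9% of its 51-base stretches occur elsewhere, mostly in *Eno1b*. Summed over isozymes at 10 steps, the hexokinase and phosphofructokinase steps had the lowest levels, 27.8 and 25.7 CPM per kilobase. The other steps summed here were between 42.1, for enolase, and 464, for lactate dehydrogenase. If every read from a shared stretch was lost, *Eno1* would have 148 CPM per 1000 unshared stretches against 41.6 over all. *Pgam1*, with 41.4% of its stretches shared, would have 122 against 71.6. The place of enolase among these steps is therefore uncertain. By the same division *Ldhb*, with 26.3% of its stretches shared, would have 516 against 380, and *Ldha* would hold 18.9% of its family.

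Regulators of the pathway were also measured. Of 5 listed genes that make or remove fructose 2,6-bisphosphate, the activator of phosphofructokinase, 4 were in the table. *Pfkfb3* led with 20.995 CPM per kilobase, above any single phosphofructokinase gene, followed by *Pfkfb2* with 6.94, *Pfkfb4* with 0.853 and *Pfkfb1* with 0.524. *Pfkfb3* has 10 entries, and its level rests on the highest, a RefSeq mRNA of 2216 bases. Levels per kilobase of its other entries are not given here. All 9 genes of pyruvate entry into mitochondria and its control had at least 1 CPM. They included *Mpc1*, a subunit of the mitochondrial pyruvate carrier, with 114 CPM per kilobase, and *Pdha1*, of pyruvate dehydrogenase, with 83.5. Among the kinases that switch off pyruvate dehydrogenase *Pdk2* had 32.9 and *Pdk1*, *Pdk3* and *Pdk4* had 5.30 to 7.503. The level of *Pdk3* rests on its RefSeq entry of 11.2 CPM, while an assembled entry of that gene had 23.9 CPM.

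Of the 8 genes of the opposite direction, gluconeogenesis, 2 had a level per kilobase within or above the range of the high glycolysis group, and all 8 had at least 1 CPM. *Pck1*, phosphoenolpyruvate carboxykinase, had 279 CPM per kilobase, and *Fbp1*, fructose 1,6-bisphosphatase, which reverses the step of phosphofructokinase, had 149. That is above the summed 25.7 of the phosphofructokinases. *G6pc*, which reverses the hexokinase step, had 48.5 against the summed 27.8 of the hexokinases. The other gluconeogenesis genes were lower, with 31.9 CPM per kilobase for *Pcx*, 26.8 for *Slc37a4*, 7.51 for *G6pc3*, 5.79 for *Fbp2* and 2.11 for *Pck2*. Of 12 glucose and lactate carriers, 11 had at least 1 CPM. *Slc5a12*, a sodium-coupled lactate carrier, had 79.0 CPM per kilobase, *Slc5a2*, the main glucose carrier of the proximal tubule, 47.5, and *Slc2a1*, the basal glucose carrier of many cells, 12.5.

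Markers of kidney cell types were present. The 5 proximal tubule markers ranged from 81.8 to 1030 CPM, and the thick ascending limb markers *Umod* and *Slc12a1* had 1022 and 618. Collecting duct markers had 23.1 to 82.6 CPM and podocyte markers 13.0 and 33.2. Of the distal convoluted tubule markers *Slc12a3* had 169 CPM and *Pvalb* 3.14. Of cells whose glycolysis genes could add to those of kidney, the 4 skeletal muscle markers were at 0.0263 to 0.0890 CPM, with *Myh4* at the lowest value of the table. Listed red blood cell markers had 20.1 to 72.9 CPM, endothelial markers 44.2 and 52.7, macrophage markers 4.49 and 5.19 and adipocyte markers 2.14 and 5.82. The part of these cells in the level of any glycolysis enzyme was not tested. Among the red blood cell markers, *Hba-a1* and *Hba-a2* had the same value, 72.9 CPM. Sequence that marker genes share with other loci was not searched, so the levels of these globin genes are uncertain.

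Promoters were searched for letters known from glycolysis genes in general, the core ACGTG of the hypoxia response element and the E-box CACGTG, which is bound by Myc among others. Both strands were read, and each E-box also contains the core. The windows are RefSeq promoters of GRCm38.p6, from 250 bases before to 50 after an annotated start. The core was in 10 of 18 windows of the glycolysis enzymes and in 19.6% of all 32851 windows. By gene it was in at least 1 window of 8 of the 10, all but *Pfkl* and *Pfkp*, and in 21.8% of 27025 genes. The enzymes have more windows per gene than the average gene, and overlapping windows share bases, as for *Aldoa*. The E-box was in 2 of the 18 windows and in 7.15% of all windows.

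*Ldha* held 2 E-boxes in 1 window, beginning at -145 and -48 from the start, and *Pfkm* 1 at -136. The lines below show these and a core match of *Pgk1*, *Aldoa* and *Pkm*, the other high enzymes with matches upstream of the start, with the match in capitals on the strand of the gene. CACGT is the core read on the opposite strand.
*Ldha*, chr7:46845659-46845664, plus strand: ggtgtcgcagcaCACGTGgagccactcttg
*Ldha*, chr7:46845756-46845761, plus strand: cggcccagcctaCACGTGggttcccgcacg
*Pfkm*, chr15:98092453-98092458, plus strand: aattaagtatgcCACGTGaagtaagtaatt
*Pgk1*, chrX:106186950-106186954, plus strand: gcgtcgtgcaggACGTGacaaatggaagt
*Aldoa*, chr7:126799376-126799380, minus strand: tgtggctcgagtCACGTcctagcggggcg
*Pkm*, chr9:59657152-59657156, plus strand: ctccgatccggtCACGTccgcgccgcagc

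The matches are a description of the letters in these windows. Every enzyme of the high group held the core, and so did *Hk1*, *Pfkm* and *Hk2* of the low group. In *Hk2*, the enzyme of lowest level, it lay at -226 and -52. Whether a match goes with level was not tested.

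**Figure D5:**
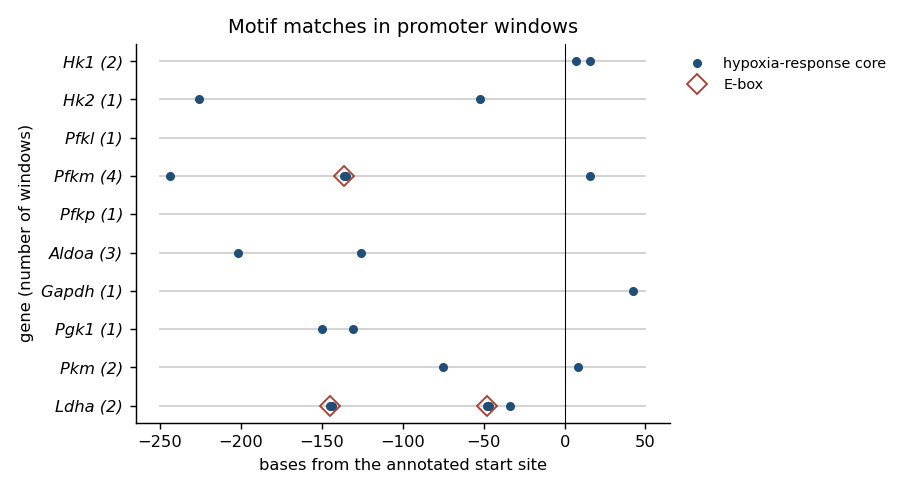
Places of the hypoxia-response core (dots) and the E-box (open diamonds) in the promoter windows of the 10 glycolysis enzymes, in bases from the annotated start (x axis), all windows of a gene drawn on 1 line and their number given beside its name. *Ldha* has 2 E-boxes, *Pfkm* has 1, and *Pfkl* and *Pfkp* have no match.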

How the data were processed

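Kidney RNA of 3 Pkd1 F/RC SKO and 3 Pkd1 F/RC DKO mice was sequenced by the authors as strand-specific 51 bp single-end reads. Per the study's methods, reads were trimmed and aligned to mm10 with TopHat 2.0.12, and alignments of low mapping quality were discarded. The submitters' processing notes also name Cufflinks, featureCounts, Subread 1.4.6 and edgeR 3.2.4.

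The deposited table holds the authors' edgeR comparison of the groups. Its log2 CPM column is the authors' mean over all 6 libraries and was the only one used. The other 4 value columns hold the authors' fold change, test statistic, p-value and false discovery rate, and were not used, so the groups were not compared. The depth of the libraries is unknown, and no interval or floor was set.

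The 10 members and the gene lists were chosen with earlier results of these data known, and the sequence searches after the table was seen. Named genes are the members, with every entry, and the listed genes. Some planned genes, and the family share of *Aldoa*, are not reported here. CPM is 2 to the power of the deposited log2 value. A gene stood by its highest entry. For levels per kilobase, its highest RefSeq mRNA entry was divided by the length of the longest GENCODE M21 transcript (GRCm38) paired with it, found for 26086 of 27012 RefSeq mRNA entries. Shared stretches were exact 51-base matches, on either strand, to GENCODE transcripts of genes elsewhere. 3′-UTRs were the bases after the stop codon. Promoter and microRNA sequences are RefSeq's (GRCm38.p6), found for all 10 members and all 6 microRNAs. Percentiles and shares were checked on simulated data. Alternatives were the mean or sum of a gene's entries, RefSeq entries only, genes of at least 1 CPM, all entries ranked, no length division and unshared stretches only. Python 3.11.15, numpy 2.4.6, pandas 2.3.3 and matplotlib 3.10.9 were used.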

Additional observations from a re-analysis of the deposited data

How the results depend on the processing

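Of 97 values recomputed under an alternative, 86 were within 1.5 times the value reported, and no value has a test. Some of the 86 could not move by construction, so the count does not measure how robust the levels are. Adding up the CPM of all entries of a gene gave 338.6 CPM for *Hk1*, 66.7 for *Pfkm*, 696 for *Aldoa*, 475 for *Pkm* and 357 for *Ldha*. Divided by the transcript length used for levels per kilobase, such sums gave family shares of 0.915% for *Hk2*, 24.6% for *Pfkl* and 50.1% for *Pfkm*. Such a sum adds 1 value for each entry of a gene, so it grows with the number of entries. *Hk2* was above 55.2% of gene symbols by CPM and above 19.9% of those of at least 1 CPM. Counting the unshared stretches only, an alternative chosen after seeing the data, gave levels of 1098 for *Gapdh* and 396 for *Pgk1*. It takes all reads from shared stretches as lost. The mean over RefSeq entries, RefSeq entries only, the ranking of all entries and shares without division by length moved no value by more than 1.5 times. RefSeq entries only could move none, since the highest entry of every enzyme is a RefSeq mRNA. Neither the mean nor the sum could move the CPM of the 4 enzymes with 1 entry. Percentiles and shares near their upper end could not rise by 1.5 times. Leaving out each replicate was not run, and no paired analysis was possible because the values used are means over all 6 libraries. Unknown depth limits low levels such as those of *Hk3*, *Pgk2* and *Ldhc*.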

Other observations

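Some genes of the pathway had an assembled entry above their RefSeq entry. *Gapdhs*, the testis isozyme of *Gapdh*, had 3.09 CPM in an entry assembled from the reads and 0.0292 CPM in its RefSeq mRNA. The muscle enolase *Eno3* had 4.75 CPM in an assembled entry and 1.77 CPM in its RefSeq mRNA. Among the other listed genes, *Pdk3* had 23.9 against 11.2 CPM and the carrier *Slc16a7* 108 against 43.0 CPM. The lengths of the assembled transcripts were not used here, and which reads they took was not tested.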
